A study of Homo sapiens with 9 samples.

Results

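Polyamine synthesis and catabolism was followed through 10 genes: ODC1, AMD1, SRM, SMS, MTAP, SAT1, SMOX, AZIN1, OAZ1 and OAZ2. All probe sets annotated to exactly 1 of these symbols were taken, which gave 22 probe sets of the 22215 that were tested, and 10 of the 11963 genes that had a probe set with 1 symbol. ODC1, SMS and SRM had 1 probe set each, AMD1, OAZ1, OAZ2 and SMOX had 2, SAT1 and AZIN1 had 3, and MTAP had 5. The probe set 210593_at carries SAT1 together with another symbol and is not counted, with intensities between 22.1 and 25.2 on all arrays. Values are intensities on a linear scale, and differences between groups are on the log2 scale with standard errors from limma. Levels are compared within a probe set, not between probe sets. The exceptions are summed marker intensities and ratios within arrays, which are read only as differences between groups.

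The arrays came from LNCaP, an androgen-responsive human prostate cancer line derived from a metastasis in a lymph node. All 9 cultures were first kept for 2 days in 10% charcoal-stripped serum, a serum low in steroid hormones. The gedunin group received 20 µM gedunin, a plant limonoid known as an inhibitor of HSP90 function, together with 1 nM R1881, a synthetic androgen. The group labelled R1881 received 1 nM R1881 with DMSO, and the group labelled vehicle received ethanol and DMSO. Each group had 3 arrays marked as biological replicates, and no group received gedunin without R1881. Descriptions give 24 h for every group, but 6 h stands in the titles of the R1881 group, so the time of that group is not settled. All cultures are 1 cell line, and RNA came from whole cultures.

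Polyamines are small positively charged molecules that bind nucleic acids and are needed for growth. Ornithine decarboxylase makes putrescine, and spermidine and spermine synthase then add aminopropyl groups that derive from S-adenosylmethionine. Cells hold the pool within limits through antizymes, which bind ornithine decarboxylase and send it to the proteasome, and through acetylation and oxidation of spermine and spermidine. The prostate secretes polyamines in large amounts, and androgen is known to raise ornithine decarboxylase there.

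Array medians lay between 52.4 and 54.5, and log2 values correlated at 0.996 to 0.998 within groups and at 0.975 to 0.985 across groups. The androgen-induced gene KLK3, which encodes prostate-specific antigen, averaged 7216 ± 384 on the gedunin arrays and 1341 ± 104 on the arrays labelled R1881, against 11839 ± 513 on the vehicle-labelled arrays (SD, n = 3). KLK3, KLK2, FKBP5 and TMPRSS2, all raised by androgen in this line, were thus lower on the arrays labelled R1881 than on those labelled vehicle. ACKR3 and UGT2B17, which androgen lowers, were higher there. The labels vehicle and R1881 therefore stand against these genes, and each group keeps its label below. If both labels were exchanged, the first comparison would change sign and the second and the third would change places. HMOX1, which encodes the stress-induced haem oxygenase, averaged 2279 ± 507 on the gedunin arrays against 44.0 ± 3.34 on the arrays labelled R1881. DNAJB1, a heat shock co-chaperone, averaged 431 ± 7.95 on the gedunin arrays and 231 ± 8.09 on the arrays labelled R1881, against 290 ± 14.1 with the label vehicle (SD, n = 3), and was higher with gedunin in the second (0.90) and the third comparison (0.57). Of 9 luminal prostate markers 7 were measured, and all 7 reached the lowest array median of 52.4 in some group. Of the other cell types' measured markers, 0 of 2 basal markers (KRT5 and KRT14), 1 of 3 leukocyte markers and 2 of 3 neuroendocrine markers reached 52.4. These were CD3E of T cells with group means of 66.4 to 68.7, SYP with 63.5 to 69.2 and NCAM1 with 58.8 to 63.8, while PTPRC and LYZ of leukocytes and CHGA of neuroendocrine cells stayed under 52.4 in all groups. Of 5 fibroblast markers 3 reached 52.4 in some group, with summed intensities of 371 to 393 with gedunin and 351 to 408 on the arrays labelled R1881, against 366 to 388 with the label vehicle, which overlap.

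ODC1, SMS and SAT1, the genes for the first enzyme of polyamine synthesis, for spermine synthase and for the acetyltransferase that starts polyamine breakdown, held the largest differences. All were lowest on the arrays labelled R1881, intermediate on the gedunin arrays and highest on the arrays labelled vehicle. AMD1 and SRM were lower in both groups labelled with R1881 than on the arrays labelled vehicle, with no difference called between those groups. AZIN1, the antizyme inhibitor, was lowest on the arrays labelled vehicle and highest on the gedunin arrays. OAZ1 and OAZ2 differed by at most 0.24 on the log2 scale, and SMOX and MTAP lay near or under the array median.

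In the first comparison, labelled R1881 against labelled vehicle, 2 of 22 member probe sets were higher and 9 were lower at an adjusted p under 0.05. Of all probe sets 27.0% were called in this comparison, 14.8% higher and 12.2% lower. In the second, gedunin plus R1881 against labelled R1881, 7 were higher and 0 were lower, where 24.3% of all probe sets were called, 12.4% higher and 11.9% lower. At an unadjusted p under 0.05, limma put 1 of the 22 lower in the second comparison. In the third, gedunin plus R1881 against labelled vehicle, 6 were higher and 8 were lower, where 23.5% of all were called, 12.9% higher and 10.6% lower. By the brightest probe set of each of the 10 genes, 1 gene was higher and 5 were lower in the first comparison, against 16.3% and 13.2% of all genes. In the second, 4 genes were higher and 0 lower, against 13.7% and 13.0%, and in the third 2 were higher and 5 lower, against 14.8% and 11.4%. The median difference of the 10 genes was -0.28, 0.09 and -0.30 in the 3 comparisons, where all genes had 0.00, -0.01 and -0.01. By the F-test over the 3 groups 13 of the 22 probe sets were called, against 35.1% of all. All calls are from limma, with Benjamini-Hochberg adjustment over all 22215 probe sets. The members' probe sets are not independent of each other, and the comparisons share arrays in pairs.

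**Figure D1:**
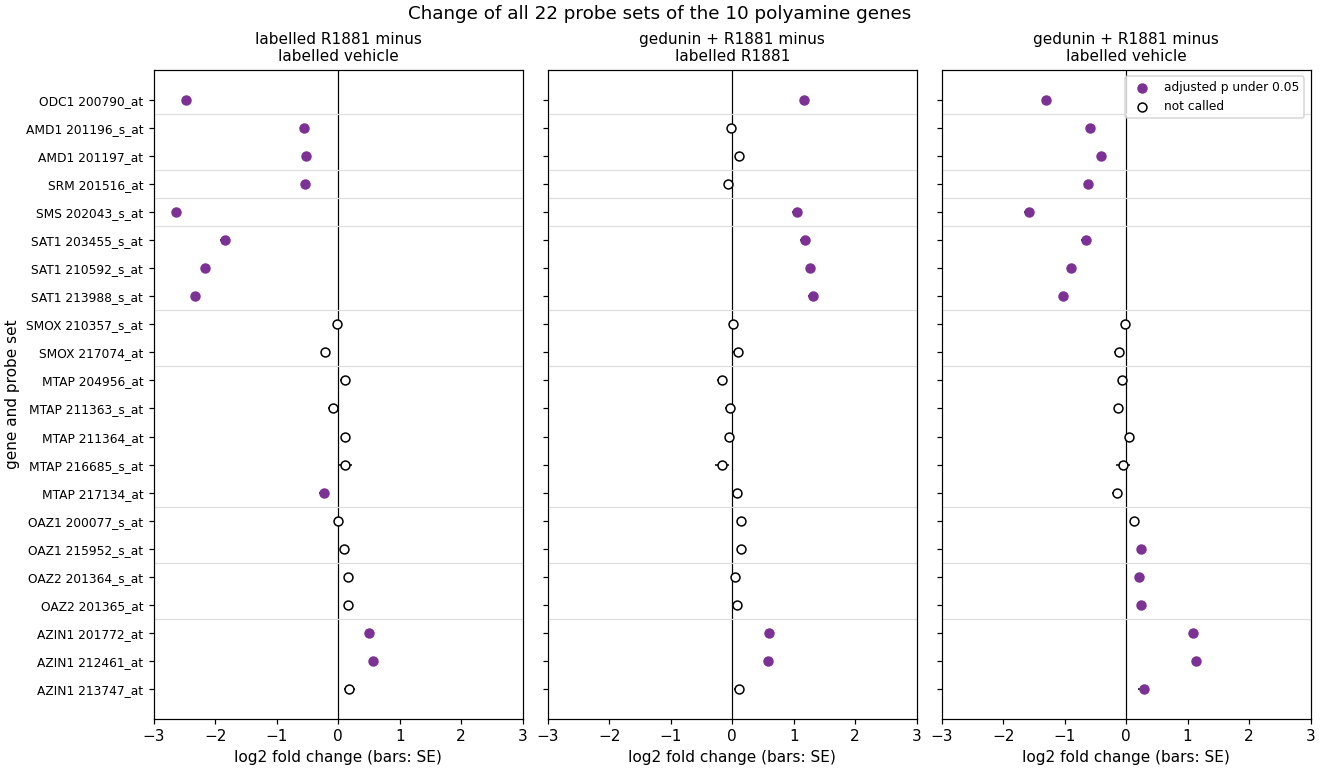
Log2 differences of the 22 member probe sets in the 3 comparisons, with standard errors from limma; filled points were called at an adjusted p under 0.05 and open points were not. ODC1, SMS and SAT1 lie between -2.64 and -1.84 in the first comparison and between 1.05 and 1.31 in the second, while AZIN1 lies right of 0 in all 3.

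Promoter windows of 300 bases, from 250 before to 50 after an annotated start, were available from RefSeq (GRCh38.p14) for 8 of the 10 genes, in 11 windows. AZIN1 and SMOX had none in the table. Windows of ODC1, SMS, SAT1 and SRM are shown because ODC1, SMS and SAT1 moved together across the groups while SRM, the partner synthase of SMS, did not follow in the second comparison. Capitals mark CACGTG, the E-box bound by MYC and MAX, and TGACG, the core of the cyclic AMP element, read on both strands, so that CGTCA is TGACG on the other strand. Sequences run 5′ to 3′ on the strand of the gene.
ODC1, downstream start: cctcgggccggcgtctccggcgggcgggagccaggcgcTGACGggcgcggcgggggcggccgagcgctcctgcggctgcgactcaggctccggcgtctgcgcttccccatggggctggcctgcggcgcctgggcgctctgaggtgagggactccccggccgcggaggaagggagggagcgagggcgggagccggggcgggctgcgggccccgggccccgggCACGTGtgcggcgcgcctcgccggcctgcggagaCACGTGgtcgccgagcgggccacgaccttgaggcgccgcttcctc
ODC1, upstream start: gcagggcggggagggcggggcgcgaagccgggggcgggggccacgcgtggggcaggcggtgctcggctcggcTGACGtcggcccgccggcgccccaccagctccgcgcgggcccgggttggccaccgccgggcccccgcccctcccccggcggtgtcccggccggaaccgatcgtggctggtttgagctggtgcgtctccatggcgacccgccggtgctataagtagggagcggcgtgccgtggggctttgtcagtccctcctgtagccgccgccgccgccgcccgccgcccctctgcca
SMS: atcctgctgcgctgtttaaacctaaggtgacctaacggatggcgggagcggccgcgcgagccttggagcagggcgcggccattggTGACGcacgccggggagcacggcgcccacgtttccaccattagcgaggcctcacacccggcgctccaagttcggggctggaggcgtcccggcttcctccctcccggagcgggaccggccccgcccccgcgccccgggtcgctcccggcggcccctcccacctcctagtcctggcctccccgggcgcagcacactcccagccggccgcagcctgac
SAT1: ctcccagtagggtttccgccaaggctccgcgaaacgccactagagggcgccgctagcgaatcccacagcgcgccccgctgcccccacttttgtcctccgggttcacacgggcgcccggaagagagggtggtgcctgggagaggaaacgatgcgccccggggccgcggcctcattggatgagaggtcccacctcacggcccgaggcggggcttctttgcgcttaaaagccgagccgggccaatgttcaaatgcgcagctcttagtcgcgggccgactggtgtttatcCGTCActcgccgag
SRM: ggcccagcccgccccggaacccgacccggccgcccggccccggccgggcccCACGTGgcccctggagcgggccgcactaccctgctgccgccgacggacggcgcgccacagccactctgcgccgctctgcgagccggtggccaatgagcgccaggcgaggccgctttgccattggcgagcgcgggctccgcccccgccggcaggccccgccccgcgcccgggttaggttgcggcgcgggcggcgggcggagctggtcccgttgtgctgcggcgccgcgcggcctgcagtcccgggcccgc
ODC1 has a pair of annotated starts in the table, with windows at chr2:10447963-10448262 for the downstream start and at chr2:10448278-10448577 for the upstream one, both on the minus strand. The window of SRM lies at chr1:11059969-11060268 on the minus strand, that of SMS at chrX:21940459-21940758 on the plus strand and that of SAT1 at chrX:23782923-23783222 on the plus strand. CACGTG occurred in 2 of the 11 member windows, against 7.26% of 35116 windows searched: at -29 and 6 from the downstream ODC1 start and at -199 in SRM. The window of the upstream ODC1 start holds 0 matches to it, and which start the probe set's transcripts use was not tested. TGACG occurred in 7 of the 11, in 4 genes, against 24.6% of all windows. It starts at -212 in the downstream and at -178 in the upstream ODC1 window, at -165 in SMS and at 37 in SAT1. AMD1, which like SRM was not called in the second comparison, holds it too, at -64, -63 and -1 in windows not shown. The AMD1 windows with -64 and -63 nearly coincide. TGACG thus occurred both in genes that moved with ODC1 and in a gene that did not follow in the second comparison. TGTTCT, a hexamer of the androgen response element, occurred in 0 of the 11 windows, against 14.8% of all. A match is a description of letters and not a bound site.

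ODC1 decarboxylates ornithine to putrescine and is the first committed step of the pathway. Its probe set measured 4158, 3997 and 4351 on the gedunin arrays, 1779, 1891 and 1867 on the arrays labelled R1881, and 10259, 10566 and 10054 on the arrays labelled vehicle. The groups did not overlap, and the gedunin arrays lay between the others. The level labelled R1881 was 5.58-fold lower than vehicle (log2 -2.48 ± 0.06, limma adjusted p = 7.58e-12). With gedunin it was 2.26-fold higher than labelled R1881 (1.17 ± 0.06, limma adjusted p = 8.97e-09) and still 2.47-fold lower than vehicle (-1.30 ± 0.06, limma adjusted p = 3.63e-09). In RNA from whole cultures, fewer cells of a type and less RNA per cell cannot be told apart.

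SMS encodes spermine synthase, which turns spermidine into spermine. SMS measured 626, 589 and 654 on the gedunin arrays, 279, 293 and 333 on the arrays labelled R1881, and 1891, 1870 and 1858 on the arrays labelled vehicle. The order was that of ODC1, again without overlap. The arrays labelled R1881 were 6.22-fold lower than vehicle (log2 -2.64 ± 0.07, limma adjusted p = 3.07e-11), the largest difference of any member. The gedunin arrays were 2.07-fold higher than labelled R1881 (1.05 ± 0.07, limma adjusted p = 1.99e-07) and 3.01-fold lower than vehicle (-1.59 ± 0.07, limma adjusted p = 4.64e-09).

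SRM encodes spermidine synthase, the preceding enzyme, which uses the same aminopropyl donor. SRM measured 329, 311 and 367 on the gedunin arrays, 356, 357 and 346 on the arrays labelled R1881, and 514, 511 and 515 on the arrays labelled vehicle. The gedunin arrays and those labelled R1881 overlapped, and both lay under all vehicle arrays. SRM was 1.46-fold lower on the arrays labelled R1881 than on vehicle (log2 -0.54 ± 0.06, limma adjusted p = 2.62e-05) and 1.53-fold lower with gedunin (-0.62 ± 0.06, limma adjusted p = 1.09e-05). Between gedunin and labelled R1881 the difference was -0.07, with a 95% interval from -0.21 to 0.06 (limma adjusted p = 0.489), an interval that does not reach the 1.05 of SMS.

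The ratio of SMS to SRM was also taken within each array as a difference of log2 values, which carries an arbitrary offset because the probe sets differ. It averaged 0.89 ± 0.05 on the gedunin arrays and -0.23 ± 0.16 on the arrays labelled R1881, against 1.87 ± 0.01 with the label vehicle (SD, n = 3). No groups overlapped, and the ratio shifted by -2.10 in the first, 1.12 in the second and -0.97 in the third comparison. Each exact two-sided permutation p was 0.1, the smallest that 3 against 3 arrays allow, or 0.129 after adjustment over the 9 ratio tests.

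AMD1 encodes S-adenosylmethionine decarboxylase, which makes the aminopropyl donor for both synthases. Its brighter probe set, 201196_s_at, measured 3337, 3129 and 3408 on the gedunin arrays, 3240, 3532 and 3256 on the arrays labelled R1881, and 4841, 5186 and 4747 on the arrays labelled vehicle. As for SRM, only the vehicle arrays stood apart. The level differed by -0.56 ± 0.06 on the arrays labelled R1881 (limma adjusted p = 1.54e-05) and by -0.58 ± 0.06 with gedunin (limma adjusted p = 1.44e-05), each against vehicle. The difference between gedunin and labelled R1881 was -0.02, with a 95% interval from -0.16 to 0.11 (limma adjusted p = 0.862). The other probe set, 201197_at, gave -0.53, 0.11 and -0.42 in the 3 comparisons. Its gedunin arrays, at 2249, 2273 and 2260, all lay over those labelled R1881, at 2100, 2111 and 2057. The value of 0.11 was still not called (limma adjusted p = 0.15, from 0.0226 to 0.887 over the alternatives).

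MTAP encodes the phosphorylase that clears methylthioadenosine, the by-product of both synthases. Its 5 probe sets measured between 14.5 and 63.8 over all arrays, and only the brightest, 211364_at, stayed over 52.4 on every array. That probe set averaged 55.7 ± 1.58 with gedunin and 57.8 ± 5.15 on the arrays labelled R1881, against 53.7 ± 0.809 with the label vehicle (SD, n = 3), and no comparison was called. Among the MTAP tests 1 was called, for 217134_at at -0.23 ± 0.07 in the first comparison (limma adjusted p = 0.0326, from 0.00839 to 0.131 over the alternatives). Its groups overlapped at 24.6 ± 1.75 on the arrays labelled R1881, against 29.0 ± 2.62 with the label vehicle, both under the array median. The call was lost without R1881 replicate 1 (0.131) or 3 (0.0556) and without vehicle replicate 2 (0.127) or 3 (0.101), by the same adjusted limma p.

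SAT1 encodes spermidine/spermine acetyltransferase, the rate-limiting enzyme of polyamine breakdown, whose products are oxidised or exported. Its brightest probe set, 203455_s_at, measured 3417, 3417 and 3417 on the gedunin arrays, 1438, 1367 and 1740 on the arrays labelled R1881, and 5508, 5358 and 5337 on the arrays labelled vehicle. The 3 gedunin values are equal as deposited, so their SD of 0 is not a measure of replicate spread. The limma standard errors and p-values of this probe set pool the spread of all groups and so take in that 0. The groups did not overlap. SAT1 was 3.58-fold lower on the arrays labelled R1881 than on vehicle (log2 -1.84 ± 0.08, limma adjusted p = 1.88e-09). With gedunin it was 2.27-fold higher than labelled R1881 (1.18 ± 0.08, limma adjusted p = 1.81e-07) and 1.58-fold lower than vehicle (-0.66 ± 0.08, limma adjusted p = 3.71e-05).

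The other SAT1 probe sets ran the same way. Probe set 210592_s_at measured 2578, 2578 and 2444 with gedunin, 1063, 1113 and 982 on the arrays labelled R1881, and 4556, 4967 and 4648 on the arrays labelled vehicle. Probe set 213988_s_at measured 1457, 1439 and 1457 with gedunin, 527, 609 and 628 on the arrays labelled R1881, and 2968, 3062 and 2828 on the arrays labelled vehicle. In the first comparison they differed by -2.17 and -2.33, in the second by 1.27 and 1.31, and in the third by -0.90 and -1.02, all called without overlap of groups. Exactly equal values were not particular to SAT1: 10.6% of the 66 pairings of a member probe set with a group held exactly 2 equal values and 1.52% held 3, against 8.74% and 0.714% over all probe sets. In the gedunin group, where each of these SAT1 probe sets held equal values, the member shares were 18.2% and 4.55%. Over all probe sets they were 9.81% and 0.878% there. On the vehicle arrays 0 member probe sets held equal values.

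SMOX encodes spermine oxidase, which turns spermine back into spermidine. Its brighter probe set, 210357_s_at, measured between 57.2 and 65.5 on all 9 arrays, a little over the array median, and the groups overlapped in every comparison. Its differences were -0.02, 0.01 and -0.02 with limma adjusted p-values of 0.835, 0.962 and 0.897. Probe set 217074_at lay between 24.6 and 33.0 and was called in no comparison, with -0.21 in the first (limma adjusted p = 0.0746, from 0.0274 without R1881 replicate 1 to 0.243 over the alternatives).

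AZIN1 encodes antizyme inhibitor, a relative of ornithine decarboxylase without its activity that binds antizyme in its place. Its brightest probe set, 212461_at, measured 973, 1024 and 943 on the gedunin arrays, 658, 658 and 650 on the arrays labelled R1881, and 429, 451 and 459 on the arrays labelled vehicle. All gedunin arrays lay over all arrays labelled R1881, and these lay over all vehicle arrays. The values of 658 are exactly equal as deposited, and the pooled limma errors take them in. Labelled R1881 had 1.47-fold more AZIN1 than vehicle (log2 0.56 ± 0.06, limma adjusted p = 5.65e-06). With gedunin it was 1.49-fold higher than labelled R1881 (0.58 ± 0.06, limma adjusted p = 4.81e-06) and 2.2-fold higher than vehicle (1.14 ± 0.06, limma adjusted p = 1.12e-08).

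Probe set 201772_at of AZIN1 measured 899, 808 and 814 with gedunin, 537, 553 and 583 on the arrays labelled R1881, and 376, 418 and 395 on the arrays labelled vehicle. It differed by 0.49, 0.59 and 1.08, and all 3 differences were called. The dim probe set 213747_at lay between 27.2 and 39.7 and was called only in the third comparison, at 0.29 (limma adjusted p = 0.0335, from 0.0155 to 0.136 over the alternatives). This call was lost without gedunin replicate 1 (limma adjusted p = 0.117) or 2 (0.131) and without vehicle replicate 2 (0.136). No other member was called higher in all 3 comparisons.

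The log2 ratio of ODC1 to AZIN1 within an array averaged 2.09 ± 0.12 with gedunin and 1.49 ± 0.05 on the arrays labelled R1881, against 4.53 ± 0.07 with the label vehicle (SD, n = 3). The groups did not overlap, and the shifts were -3.04, 0.60 and -2.44 in the 3 comparisons, and each gave 0.1 in the exact two-sided permutation test (0.129 adjusted). Every array of both groups labelled with R1881 lay under every vehicle array, and gedunin plus R1881 lay nearer to labelled R1881 than to vehicle.

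OAZ1 and OAZ2 encode antizymes, whose full-length protein is made through a ribosomal frameshift that polyamines promote, a step that RNA levels do not show. OAZ1 200077_s_at measured 8696, 8466 and 8664 with gedunin, 7712, 7632 and 8165 on the arrays labelled R1881, and 7841, 7974 and 7762 on the arrays labelled vehicle. The gedunin arrays lay over all others, while labelled R1881 and vehicle overlapped. The first comparison gave -0.00, with a 95% interval from -0.12 to 0.11 (limma adjusted p = 0.964). The second gave 0.14 ± 0.05 and was not called (limma adjusted p = 0.0827, from 0.00144 to 0.217 over the alternatives), nor was the third at 0.13 (0.0968, from 0.00203 to 0.223). Without R1881 replicate 3 the second was called for both OAZ1 probe sets (limma adjusted p = 0.0451 and 0.0463). The other OAZ1 probe set, 215952_s_at, was called in the third comparison alone, at 0.24 ± 0.06 (limma adjusted p = 0.00902).

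OAZ2 201364_s_at measured 474, 479 and 516 with gedunin, 471, 471 and 477 on the arrays labelled R1881, and 444, 426 and 408 on the arrays labelled vehicle. Both groups labelled with R1881 lay over all vehicle arrays and overlapped each other. The values of 471 are exactly equal as deposited, and the pooled limma errors take them in. Only the third comparison was called, at 0.20 ± 0.06 (limma adjusted p = 0.0211), and the call was lost without gedunin replicate 3 (0.0913) or without vehicle replicate 3 (0.0925), the range over the alternatives being 0.00612 to 0.0925. OAZ2 201365_at gave 0.23 ± 0.06 there (limma adjusted p = 0.0084). The within-array ratio of OAZ1 to OAZ2 averaged 4.14 ± 0.06 with gedunin, 4.05 ± 0.04 on labelled R1881 and 4.21 ± 0.06 on vehicle arrays (SD, n = 3), with exact two-sided permutation p-values of 0.2 in the second and 0.3 in the third comparison and 0.1 in the first, where the groups did not overlap.

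**Figure D2:**
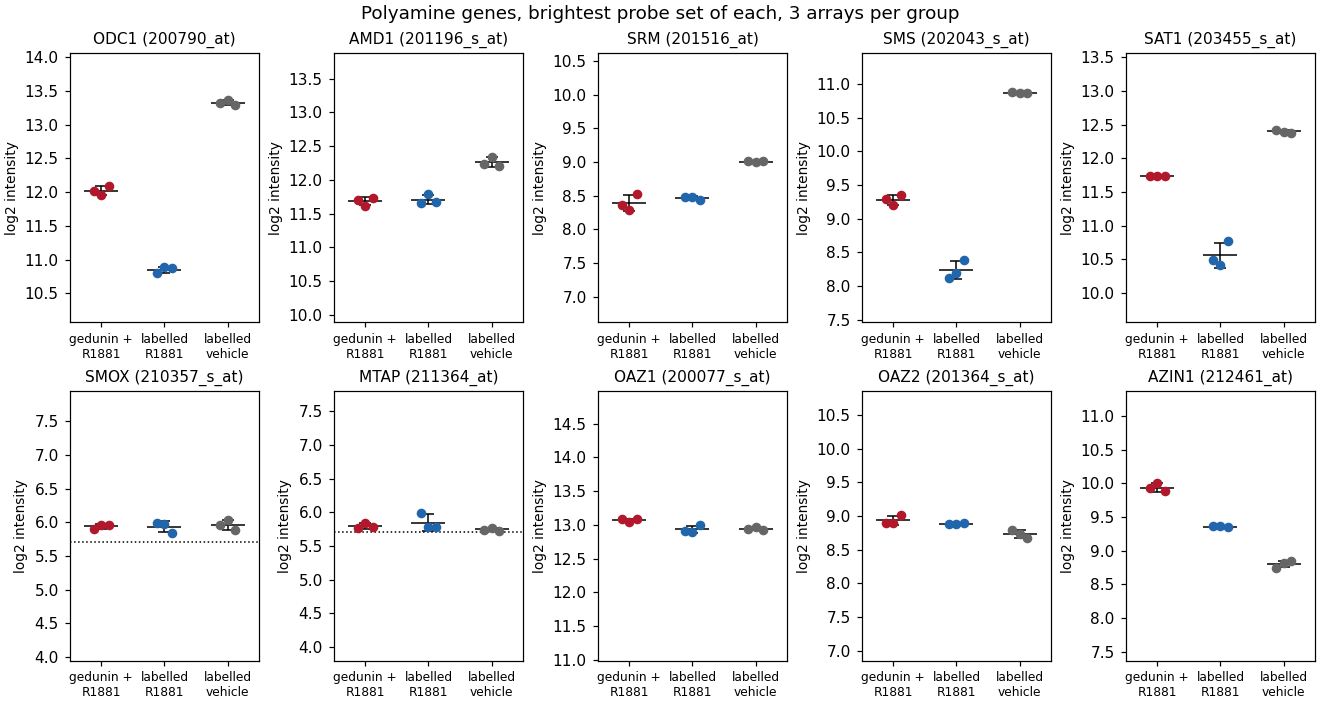
Intensity on a log2 axis of the brightest probe set of each of the 10 genes on each array, in the groups gedunin plus R1881, labelled R1881 and labelled vehicle; points are arrays, bars give the mean ± SD of 3 arrays, each panel spans 4 log2 units, and the dotted line is the lowest array median, 52.4. ODC1, SMS and SAT1 form steps between the 3 groups, AMD1 and SRM are high on the vehicle arrays alone, and AZIN1 is highest with gedunin.

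**Figure D3:**
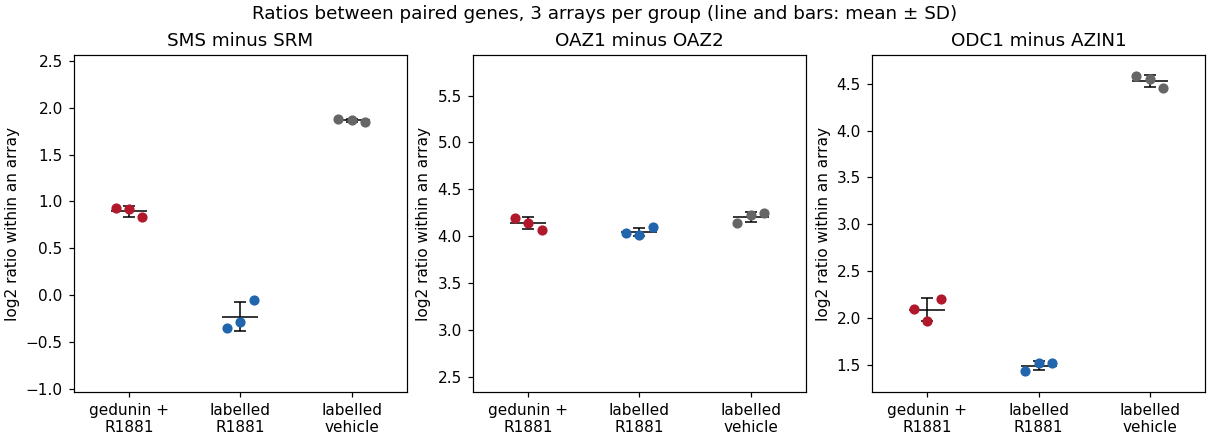
Log2 ratios of 3 pairs of members within each array by group; points are arrays and bars give the mean ± SD of 3 arrays. The SMS to SRM and ODC1 to AZIN1 ratios do not overlap between any groups, while OAZ1 to OAZ2 covers a narrow range; only shifts between groups can be read, since each ratio has an arbitrary offset.

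For members that differed by at least 1 log2 unit in the first comparison, the place of the gedunin mean between labelled R1881 (0%) and labelled vehicle (100%) was computed on the log2 scale, as a description with no test. ODC1 stood at 47.4%, from 46.1% to 48.6% when 1 array was left out. SMS stood at 39.8% (38.4% to 41.4%), and the 3 SAT1 probe sets stood at 64.1%, 58.5% and 56.1%. SAT1 thus lay nearer to vehicle, and SMS and ODC1 nearer to labelled R1881. Androgen-linked genes spanned these places, with FKBP5 at 26.7%, TMPRSS2 at 57.7%, KLK2 at 61.8% and KLK3 at 77.3%.

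Across the 9 arrays, log2 values of ODC1 correlated at r = 0.995 with SMS, 0.975 with SAT1 and -0.516 with AZIN1. The arrays share 3 groups, so these values mostly describe the group means. Among 607 genes whose group means spanned at least 1 log2 unit, those most like ODC1 were KRT8 and KRT18 (keratins of luminal epithelium, r = 0.999 each), and CSGALNACT1, TNFRSF10B and C1orf116 (0.998 each). Those most like SMS were TPM1 (0.999), ELOVL5, MICAL1 and NDRG1 (0.998 each) and C1orf116 (0.997). KRT8, a luminal marker, averaged 732 ± 67.7 with gedunin and 279.5 ± 21.0 on the arrays labelled R1881, against 2196 ± 78.3 with the label vehicle (SD, n = 3). The summed intensity of the 7 luminal markers, which include KLK3 and KLK2, was 13488 to 14697 with gedunin and 6042 to 6691 on the arrays labelled R1881, against 26520 to 28657 with the label vehicle, and its part in the ODC1, SMS and SAT1 results was not tested. Among the 7, KLK3, KLK2, KRT8 and KRT18 had the order of ODC1 and the other 3 did not. FOLH1 averaged 376 with gedunin and 708 on labelled R1881, against 268 on vehicle arrays, and HOXB13 averaged 544 with gedunin and 1147 on labelled R1881, against 762 on vehicle arrays. ACP3 was lowest with gedunin, at 125, with 759 on labelled R1881 and 823 on vehicle arrays.

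Genes around the pathway were described from 6 lists that hold 46 genes beside the members, of which 38 had a probe set with 1 symbol. In the first comparison 4 of 38 were higher and 14 lower, in the second 12 higher and 4 lower, and in the third 6 higher and 11 lower. The same shares over all genes are 29.5% called in the first, 26.7% in the second and 26.2% in the third comparison. By direction, 16.3% of all genes were higher and 13.2% lower in the first, 13.7% and 13.0% in the second, and 14.8% and 11.4% in the third. The counts of each list below stand beside these shares, and whether they differ from them was not tested. The lists' median differences were -0.11, 0.05 and -0.01. Of the other polyamine enzymes and antizymes 3 of 5 were measured. OAZ3, an antizyme known from testis, averaged 229 ± 8.36 with gedunin and 175 ± 20.3 on the arrays labelled R1881, against 254 ± 13.6 with the label vehicle (SD, n = 3), and was lower in the first comparison (-0.55) and higher in the second (0.39). These values are of its brightest probe set. The dimmer OAZ3 probe set gave -0.00, -0.04 and -0.04 and was not called (limma adjusted p = 0.979, 0.718 and 0.703). PAOX, which oxidises acetylated polyamines, was lower with gedunin than on vehicle arrays, at -0.25 (limma adjusted p = 0.0161, from 0.00969 to 0.0763 over the alternatives), a call lost without gedunin replicate 2 (0.0763) or vehicle replicate 2 (0.0646).

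Of 9 measured genes that supply ornithine and arginine, 1 was higher and 5 were lower in the first comparison, 2 were higher and 2 lower in the second, and 1 was higher and 4 lower in the third. ARG2, the mitochondrial arginase that makes ornithine, measured 236, 212 and 240 with gedunin, 537, 567 and 560 on the arrays labelled R1881, and 939, 935 and 930 on the arrays labelled vehicle. The groups did not overlap, and the gedunin arrays lay lowest. ARG2 differed by -0.75, -1.28 and -2.03 in the 3 comparisons (limma adjusted p = 6.53e-07, 7.32e-09 and 1.44e-10), while its dimmer probe set gave -0.03, -0.32 and -0.35. OAT, which interconverts ornithine and glutamate semialdehyde, averaged 105 ± 8.19 with gedunin, 57.3 ± 6.09 on labelled R1881 and 76.7 ± 5.85 on vehicle arrays (SD, n = 3), and was higher with gedunin than in either other group. PYCR1, which makes proline, was lower in the first (-0.59) and the third comparison (-0.32) and higher in the second (0.27). ASS1, an enzyme of arginine synthesis, ran the other way in the first (0.58) and the second (-0.56), with 0.03 in the third (limma adjusted p = 0.823).

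Of 10 genes for S-adenosylmethionine supply and use, 3 were higher and 3 lower in the first comparison, 3 higher and 2 lower in the second, and 2 higher and 4 lower in the third. GNMT, which spends S-adenosylmethionine on methylating glycine, measured 252, 265 and 309 with gedunin, 52.1, 57.4 and 48.8 on the arrays labelled R1881, and 746, 774 and 738 on the arrays labelled vehicle. The groups did not overlap and kept the order of ODC1, with differences of -3.84, 2.38 and -1.46 (limma adjusted p = 4.99e-12, 4.89e-10 and 4.16e-08). NNMT, another methyltransferase, averaged 64.0 ± 3.10 with gedunin, 27.8 ± 6.79 on labelled R1881 and 100.3 ± 12.8 on vehicle arrays (SD, n = 3), where a mean under 52.4 makes its folds approximate. MTR, methionine synthase, was lowest with gedunin and highest on labelled R1881, at 80.4 ± 4.03 with gedunin, 152 ± 7.86 on labelled R1881 and 109 ± 8.39 on vehicle arrays (SD, n = 3), and was called in all 3 comparisons. AHCY, which clears S-adenosylhomocysteine, was lower with gedunin than on labelled R1881 (-0.36) and than on vehicle (-0.44).

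Of 4 measured genes of methylthioadenosine salvage after MTAP, 0 were higher and 2 were lower in the first comparison, 3 were higher in the second, and 1 was lower in the third. The first count was 0 by limma at an unadjusted p under 0.05 too. GOT1, a transaminase, averaged 497 ± 20.9 with gedunin, 293 ± 4.05 on labelled R1881 and 451 ± 9.38 on vehicle arrays (SD, n = 3). It was lower in the first comparison (-0.62) and higher in the second (0.76). APIP was lower in the first (-0.73) and the third (-0.48) and higher in the second (0.25), and ENOPH1 was higher in the second at 0.26 (limma adjusted p = 0.0111, from 0.00269 to 0.0512 over the alternatives), a call lost without gedunin replicate 3 (0.0512) or R1881 replicate 1 (0.0503). Of the 4 genes for eIF5A and its hypusination, which uses spermidine, 1 was called in the first, 0 in the second and 1 in the third comparison. The calls were DOHH at -0.28 in the first and EIF5A at -0.29 in the third (limma adjusted p = 0.0108, from 0.00182 to 0.0527 over the alternatives, with 0.0527 without gedunin replicate 1 or 2). These are the brightest probe sets. The other DOHH probe sets gave -0.15 and 0.11 in the first comparison and were not called (limma adjusted p = 0.0641 and 0.414). The other EIF5A probe sets gave -0.12 and -0.18 there, and the latter was called (limma adjusted p = 0.0372). In the third they gave -0.20 and -0.29, both called (limma adjusted p = 0.04996 and 0.00252), the former at the edge of the threshold. At an unadjusted p under 0.05, 1 of the 4 genes passed in the second comparison by limma.

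Of 8 measured transport genes, 0 were higher and 2 lower in the first comparison, and 3 were higher and 0 lower in the second and in the third. Over all genes 29.5%, 26.7% and 26.2% were called in the 3 comparisons. Each count of 0 was 0 by limma at an unadjusted p under 0.05 too. SLC3A2, the heavy chain of several amino acid transporters, measured 1516, 1500 and 1389 with gedunin, 324, 347 and 344 on the arrays labelled R1881, and 385, 373 and 379 on the arrays labelled vehicle. Only the gedunin arrays stood far apart, by 2.12 over labelled R1881 and 1.95 over vehicle (limma adjusted p = 7.12e-11 and 1.39e-10). Its first comparison gave -0.16 (limma adjusted p = 0.0492, from 0.0171 to 0.161 over the alternatives), a call that was lost when any array but gedunin replicate 3 was left out. SLC7A1, which imports arginine and ornithine, averaged 664 ± 4.83 with gedunin, 386 ± 15.2 on labelled R1881 and 483 ± 3.11 on vehicle arrays (SD, n = 3). SLC12A8, linked to polyamine transport, was higher with gedunin than on labelled R1881 (0.43) and than on vehicle (0.53).

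Of 4 measured regulators linked to these genes, 2 were higher in the first comparison, 1 was higher and 3 were lower in the second, and 1 was higher and 1 lower in the third. MYC, a transcription factor known to act on ODC1, measured 314, 298 and 342 with gedunin, 938, 1009 and 946 on the arrays labelled R1881, and 467 on each array labelled vehicle. MYC was highest on the arrays labelled R1881, where ODC1 was lowest, and lowest with gedunin, with differences of 1.05, -1.60 and -0.55 (limma adjusted p = 4.2e-08, 1.43e-09 and 2.17e-05). Its vehicle values are equal as deposited, so they do not measure replicate spread, and the pooled limma errors take in their SD of 0. MXI1, which competes for the MYC partner MAX, followed MYC in the first (1.02) and the second comparison (-1.16). MAX was lower in the second at -0.27 (limma adjusted p = 0.0199, from 0.00498 to 0.0976 over the alternatives), a call lost without gedunin replicate 1 (0.0976) or 2 (0.0707) or R1881 replicate 1 (0.0648). That is its brightest probe set alone. The other MAX probe sets gave 0.15, -0.04, -0.06 and -0.08 there and were not called (limma adjusted p from 0.417 to 0.832). NFE2L2, the regulator of antioxidant genes, was higher with gedunin than on labelled R1881 (0.58) and than on vehicle (0.53).

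**Figure D4:**
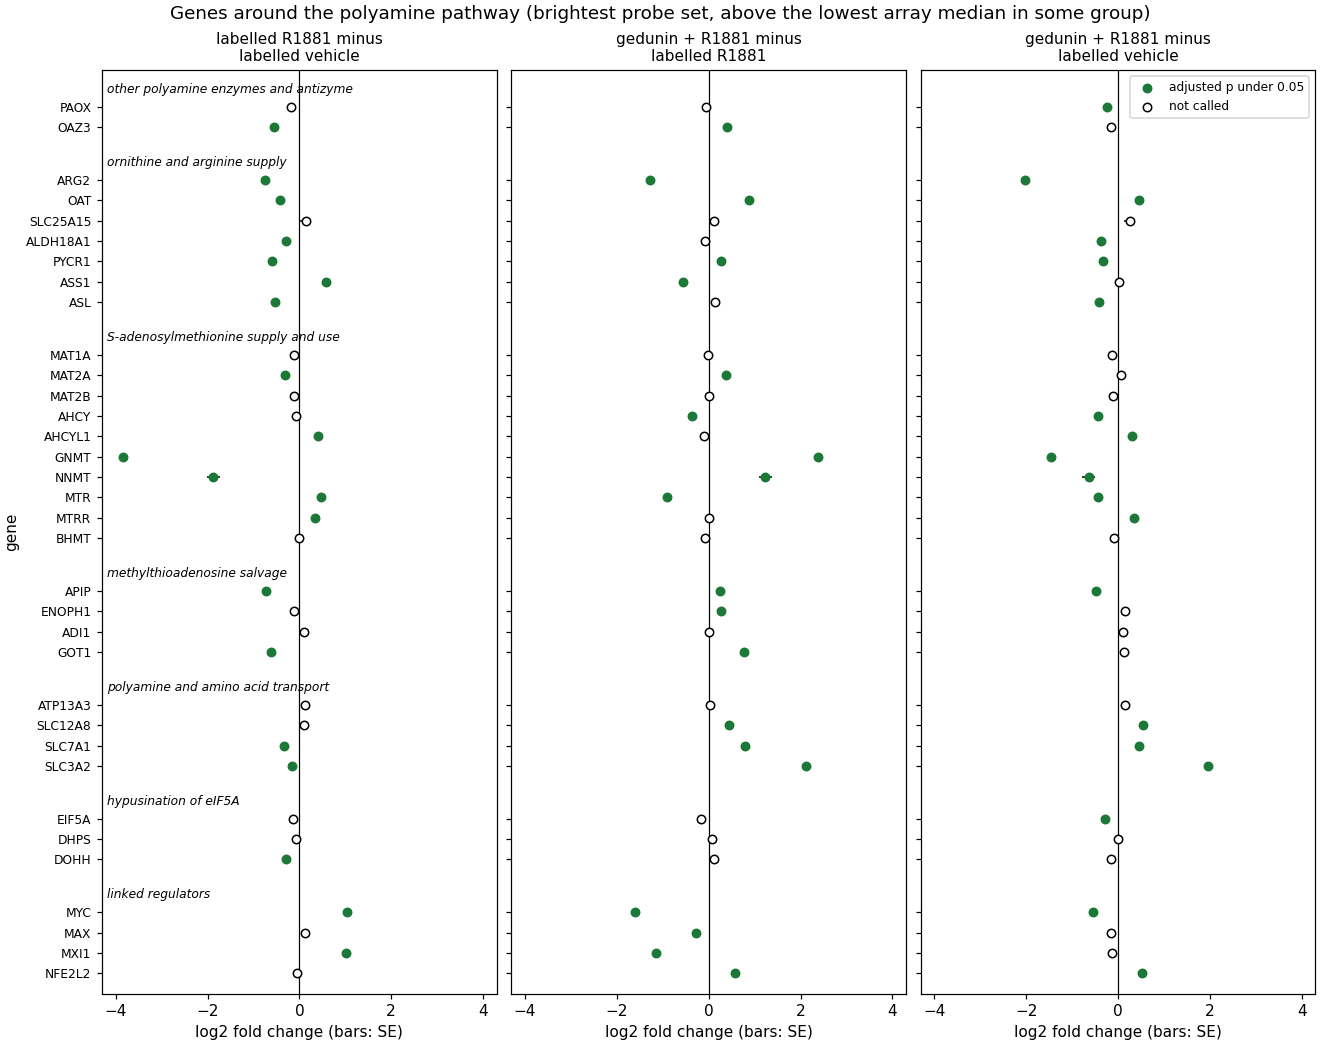
Log2 differences with limma standard errors of 34 measured genes of the pathway lists and the linked regulators whose highest group mean reached 52.4, by list, in the 3 comparisons; filled points were called at an adjusted p under 0.05. GNMT reaches -3.84 in the first comparison, SLC3A2 lies at 2.12 and 1.95 in the second and the third, and ARG2 lies left of 0 in all 3.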

How the data were processed

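RNA was measured in 9 LNCaP cultures on Affymetrix arrays. Total RNA was extracted with Trizol and labelled with biotin, per the labels' protocols. The authors deposited linear intensities of the probe sets, from 8.63 to 20189, made with RMA per the submitters' processing notes (version not given in the sources used here). RMA subtracts background and equalises the arrays' distributions, so these values cannot show a change in RNA content per cell. The number of arrays, 3 per group, limits the precision.

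Intensities were taken to log2 with no filter. Of 22277 probe sets, 62 controls were left out, and 19064 had 1 symbol in GEO's platform annotation, 1043 several and 2108 none. Gene IDs were checked against RefSeq names, where 12 had no match and 0 symbols changed. A gene is represented by its brightest probe set over the 9 arrays. Groups were compared with limma 3.58.1 (R 4.3.3), with 1 coefficient per group and eBayes without trend (6.08 prior and 6 residual degrees of freedom), two-sided, and adjusted over all 22215 probe sets by Benjamini-Hochberg. Fits were tested on simulated data. Ratios within arrays were compared by exact permutation. Samples were grouped by their titles, whose replicate numbers were not taken as pairs.

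The members, lists, tests and alternatives were chosen with earlier results of these data known. Named are all member probe sets, the measured genes of the androgen and gedunin checks and up to 4 called genes per list with the largest change, and as most like ODC1 and SMS the 5 genes of highest Pearson r. Alternatives were an intensity trend, leaving out dim probe sets, median centring, repeated quantile normalisation, log2(intensity + 32), fits on only the 2 groups compared, a replicate block, 1 probe set per gene, ratios from the mean of all probe sets, and leaving out each array. Whether replicates came from separate cultures rests on the label that calls them biological replicates.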

Additional observations from a re-analysis of the deposited data

How the results depend on the processing

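Of 32 member calls, 29 were called with the same sign under every alternative that tested them, and the exceptions were OAZ2 201364_s_at and AZIN1 213747_at in the third comparison and MTAP 217134_at in the first. Of 34 member results that were not called, 26 were never called. The others were OAZ1, OAZ2, AMD1 201197_at, SMOX 217074_at and MTAP 217134_at results, and OAZ2 was called in the first comparison with a trend, without dim probe sets, after quantile normalisation and with the pseudocount (adjusted p from 0.0156 to 0.0483 over both probe sets, limma). No called result changed sign. With 1 probe set per gene, 3624, 3277 and 3219 features were called in the 3 comparisons, with 6, 4 and 7 members, because fewer features were tested. Leaving out 1 array gave 10 to 11, 7 to 9 and 13 to 15 member calls, with 5209 to 5842, 4614 to 5459 and 4286 to 5541 calls over all probe sets. The within-array ratios kept their direction under all 81 alternative values. Leaving out 1 array gave -2.18 to -2.04, 1.06 to 1.21 and -0.99 to -0.94 for SMS to SRM, -3.07 to -3.01, 0.54 to 0.66 and -2.50 to -2.38 for ODC1 to AZIN1, and -0.19 to -0.14, 0.06 to 0.12 and -0.10 to -0.04 for OAZ1 to OAZ2.

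Same-numbered deviations correlated at 0.12, 0.14 and 0.05 between labelled R1881 and vehicle, where all 3 arrays correlated best with their own number, a hint from the data and not the design. Between gedunin and either other group r lay from -0.10 to 0.01 and 0 of 6 did, so not every pair passed 0.1 in any comparison and the numbers were not taken as pairs. With the replicate number as a block, member calls stayed at 11, 7 and 14, and 5897, 5297 and 5107 probe sets were called. Signal limits 6 of the 22 member probe sets, which lay under 52.4 in every group mean, so their differences are approximate. With 3 arrays per group no exact test of a single ratio can reach 0.05.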
